A study of Mus musculus with 8 samples.

Results

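Wild-type mouse embryonic fibroblasts were compared at late and early passage in 2 genetic backgrounds. Embryonic fibroblasts are mesenchymal cells obtained by breaking up an embryo and kept in culture by repeated replating, each replating being 1 passage. The 4 arrays labelled wild-type were taken out of the 8 arrays of the series; the other 4 were of cells lacking Smurf2, which encodes a ubiquitin ligase acting on Smad proteins. The C57B6 pair was passage 28 against passage 7, and each of its arrays is labelled as cells of 1 embryo. The mixed BL pair (129SVJ crossed with NIH Black Swiss) was passage 33 against passage 6, and its cells are labelled as a mix of 2 embryos. All cells grew in Dulbecco's medium with fetal bovine serum and antibiotics, with no further treatment named, and total RNA was hybridised to Affymetrix arrays. Whether late cells descend from the culture sampled early is not stated in the labels, and the sample descriptions and the growth protocol give different embryonic days. Background, passage number and number of embryos therefore differ together between the pairs and cannot be told apart.

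Primary mouse fibroblasts divide for a limited number of passages in ordinary oxygen, then slow down and enter senescence, a lasting arrest held by the p53 and retinoblastoma pathways. Cultures that are kept on usually yield cells that have escaped this arrest and grow as an established line. Senescent fibroblasts are known for secreting chemokines, growth factor binding proteins and matrix-degrading proteases, and dividing fibroblasts for taking up and making amino acids. Matrix proteins, Hox genes and interferon response genes are also known to vary between fibroblast cultures.

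Values are log2 differences from each feature's median over the 8 arrays, as deposited, so they show how arrays differ for a gene and not how abundant a gene is. A difference below is late minus early passage on this log2 scale, and a difference of 1 is 2-fold. The table held 22536 features, of which 17501 were named genes. Each background has 1 early and 1 late array, so a difference within a background has no replicate and no test, and 2-fold was used only as a limit of size. The mean of both backgrounds was tested with limma on all 8 arrays. Of 22536 features, 0 passed an adjusted p of 0.05 (0%), with 1599 at an unadjusted p under 0.05 and a smallest adjusted p of 0.515. Every value that follows therefore describes these 4 arrays. Single genes compared by exact permutation of 2 late against 2 early arrays could not go below a two-sided p of 0.333. Over 16 fibroblast markers the late minus early medians were -0.32 in C57B6 and -0.57 in mixed BL. Levels of markers across cell types cannot be read from centred values, so these medians do not check the fibroblast label. Smurf2 stood at 0.71 and 0.64 in C57B6 early and late and at 0.96 and 0.43 in mixed BL, and Xist lay between 1.53 and 3.20 on the 4 arrays, with Uty between -1.07 and -0.99.

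Among features past 2-fold, more were lower than higher late in each background. Over all features, 47.7% were lower late in C57B6, 44.5% in mixed BL and 23.6% in both, and 52.3%, 55.5% and 31.4% were higher, the shares against which the counts of lists are read. The gene lists below were chosen with earlier results of these data known. Their members are not independent, so such counts describe the lists and give no test of them. In C57B6, 129 features were at least 2-fold higher late (0.572%) and 346 at least 2-fold lower (1.54%). The higher ones were 27.2% of those past the limit, and 37.7% after quantile normalisation of the arrays (176 higher and 291 lower). In mixed BL, 350 were higher (1.55%) and 531 lower (2.36%), and after quantile normalisation 458 and 469. The 2 pairs share no array. In both pairs together, 20 features were at least 2-fold higher (0.0887%) and 83 at least 2-fold lower (0.368%). A further 105 features were past 2-fold in C57B6 and under 0.25 in size in mixed BL, 33 of them higher (0.146%) and 72 lower (0.319%). In mixed BL alone by the same limits there were 301, of which 125 were higher (0.555%) and 176 lower (0.781%). Another 63 lay past 2-fold in opposite directions. Of these, 42 were lower in C57B6 and higher in mixed BL (0.186%), and 21 were the reverse (0.0932%). Over all 22536 features the 2 differences had a Pearson correlation of 0.14 and a Spearman correlation of 0.11, across features that are not independent. The spread of differences was wider in mixed BL (SD 0.45) than in C57B6 (SD 0.34), with medians of 0.03 and 0.01.

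**Figure D1:**
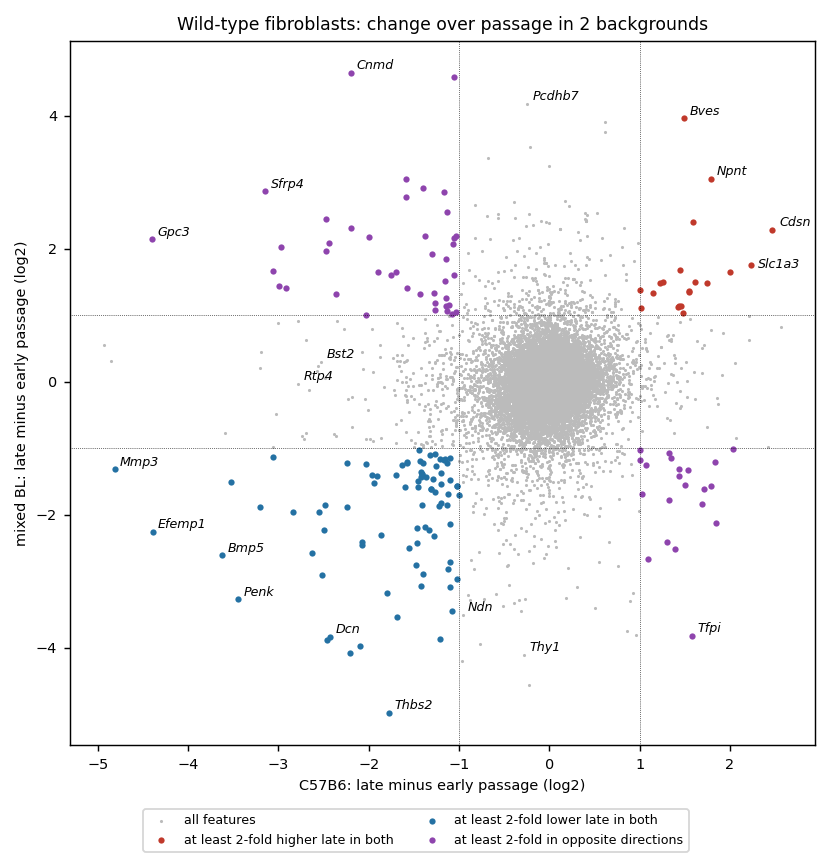
Late minus early difference of each of 22536 features in wild-type C57B6 (horizontal) and mixed BL (vertical) cells, both in log2 units, with dotted lines at 2-fold. Red points are the 20 features higher in both pairs, blue points the 83 lower in both, and purple points the 63 in opposite directions; most of the cloud lies inside the dotted lines.

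The 78 named genes that were at least 2-fold lower late in both backgrounds included secreted peptides, growth factors and matrix proteins. Penk, the precursor of enkephalin peptides, stood at 2.98 early and -0.47 late in C57B6, and at 2.20 and -1.06 in mixed BL. It was 10.9-fold and 9.63-fold lower, with both early arrays above both late ones. The mean difference of Penk was -3.36 ± 0.70 (SE, limma adjusted p = 0.561). Each SE here and below comes from the limma fit to all arrays, Smurf2-null ones included. It is not the spread of the wild-type pairs, which for Penk were -3.45 in C57B6 and -3.27 in mixed BL. Bmp5, a bone morphogenetic protein ligand, stood at 3.25 and 2.44 early and at -0.37 and -0.16 late in C57B6 and mixed BL. Its mean difference was -3.11 ± 0.25 (adjusted p = 0.515), with the smallest unadjusted p among genes lower late in both. Serping1, the inhibitor of complement C1 proteases, gave nearly the same values in both backgrounds, 1.57 and 1.53 early and -1.06 and -1.05 late. Decorin (Dcn), a small collagen-binding proteoglycan, stood at 0.26 early and -2.17 late in C57B6, and at 1.74 and -2.09 in mixed BL. The late arrays thus lay close together for Dcn, while the early array of mixed BL lay higher than that of C57B6. Ctsk, a collagen-degrading lysosomal protease, followed a like pattern, at 0.26 and 1.66 early and -2.20 and -2.22 late.

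Other members of this group showed larger differences in one pair. Efemp1, an elastic fibre associated protein, was 21.0-fold lower late in C57B6 and 4.77-fold lower in mixed BL. Itgbl1, an integrin-like secreted protein, was 4.63-fold lower in C57B6 and 16.9-fold lower in mixed BL. The growth factor pleiotrophin (Ptn) was 4.27-fold and 15.6-fold lower, and Edil3, an integrin-binding matrix protein, 5.73-fold and 7.51-fold lower. Gas6, the ligand of the Axl receptor, gave differences of -2.07 and -2.45, and the adhesion receptor Vcam1 gave -2.55 and -1.96. Maob, a mitochondrial amine oxidase, gave -2.08 and -2.41. Limma ranked further genes high, by differences large against their SE in the fit to all 8 arrays. Gpx3, an extracellular glutathione peroxidase, had a mean difference of -1.73 ± 0.18, and Lrrc32, which holds latent TGF-beta at the cell surface, -1.66 ± 0.18. The lysosomal protease Ctsb had -0.97 ± 0.10 and the Golgi protein Tgoln1 -0.97 ± 0.09. None of these passed the test, each with an adjusted p of 0.515.

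Among 33 elastic fibre, proteoglycan and matricellular genes, 23 were lower late in C57B6 and 21 in mixed BL, and 16 in both. The medians were -0.32 and -0.27, against 0.01 and 0.03 over all features. At least 2-fold lower were 8 in C57B6 and 9 in mixed BL, against 1.54% and 2.36% of all features. Lower by that much in both were 5 (Efemp1, Dcn, Lum, Aspn and Thbs2), against 0.368% of all features. Thbs2, an antiangiogenic matricellular protein, stood at 0.88 early and -4.10 late in mixed BL and at 1.47 and -0.31 in C57B6. Lumican (Lum), a collagen-binding proteoglycan, stood at 1.73 early and -0.52 late in C57B6, and at 0.71 and -0.51 in mixed BL. Collagen chain genes did not share this: of 24, 15 were higher in C57B6 (median 0.21) and 19 lower in mixed BL (median -0.13). Of 16 fibroblast markers, 10 were lower late in C57B6, 13 in mixed BL and 9 in both. Of all features 47.7%, 44.5% and 23.6% were so. At least 2-fold lower in both were Dcn and Lum, already counted above, and Pdgfra. Thy1, a surface marker of fibroblasts, stood at 1.89 early and -2.21 late in mixed BL against 0.04 and -0.24 in C57B6. Some markers differed little, such as Col1a1 (0.24 in C57B6 and -0.15 in mixed BL) and Fn1 (-0.02 and -0.14). In bulk RNA, fewer cells of a type and less RNA per cell cannot be told apart.

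The 18 named genes at least 2-fold higher late in both backgrounds included several amino acid transporters. Slc1a3, a glutamate and aspartate transporter, stood at -0.70 early and 1.53 late in C57B6, and at -0.21 and 1.55 in mixed BL. It was 4.69-fold and 3.39-fold higher, with a mean difference of 2.00 ± 0.28 (SE from the limma fit to all arrays, adjusted p = 0.515). Slc7a5, the light chain of a transporter of large neutral amino acids, stood at -1.11 and -0.46 early and at 0.43 and 0.89 late. Slc7a11, the cystine and glutamate exchanger, stood at -0.88 and -0.78 early and at 0.56 and 0.89 late. For each of these transporters both late arrays lay above both early ones, by 1.35 to 2.23 within a pair. Slc7a3, a cationic amino acid transporter, was 4.01-fold and 3.13-fold higher, Slc1a5, the glutamine transporter, 2.69-fold and 2.17-fold, and Aldh1l2, a mitochondrial folate enzyme, 3.06-fold and 2.82-fold.

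A list of 38 measured genes of amino acid supply and its stress response was drawn up after these transporters had been seen, so it supports nothing by itself, and 9 of the 38 stand in other lists too. In it, 37 genes were higher late in C57B6 and 30 in mixed BL, and 29 in both, with medians of 0.66 and 0.34. At least 2-fold higher were 14 in C57B6 and 6 in mixed BL, and those 6 (Slc1a3, Slc7a3, Slc7a5, Slc7a11, Slc1a5 and Aldh1l2) were past the limit in both. Of all features, 0.572% and 1.55% were so, and 0.0887% in both. Other members differed mainly in C57B6. Trib3, a pseudokinase induced by amino acid shortage, stood at -0.79 early and 1.41 late in C57B6 and at -0.39 and 0.60 in mixed BL. Cth, which makes cysteine, was 4.15-fold higher in C57B6 and 1.22-fold in mixed BL. Chac1, which breaks down glutathione, was 2.86-fold and 1.22-fold higher, and Asns, asparagine synthetase, 2.31-fold and 1.30-fold. Ddit4, an inhibitor of the mTOR pathway, ran the other way in C57B6, at 0.36 early and -0.89 late, and was higher late in mixed BL by 0.85.

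Further genes higher late in both backgrounds belonged to several classes. Cdsn, an adhesion protein of cornified skin, stood at 0.09 early and 2.56 late in C57B6, and at -0.82 and 1.46 in mixed BL. Npnt, a matrix ligand of integrins, stood at -0.73 and -0.81 early and at 1.07 and 2.24 late. Gnao1, a G protein alpha subunit, gave differences of 1.55 and 1.36 and, among named genes higher late in both, the smallest unadjusted p, with a mean of 1.45 ± 0.17 (adjusted p = 0.515). Bves, a membrane protein of muscle and epithelium, was 2.81-fold higher in C57B6 and 15.5-fold in mixed BL. The Wnt receptor Fzd4 was 2.39-fold and 2.82-fold higher, and Ltbp4, which binds latent TGF-beta, 2.22-fold and 2.53-fold. Serpinb6b, an intracellular protease inhibitor, was 3.35-fold and 2.81-fold higher.

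**Figure D2:**
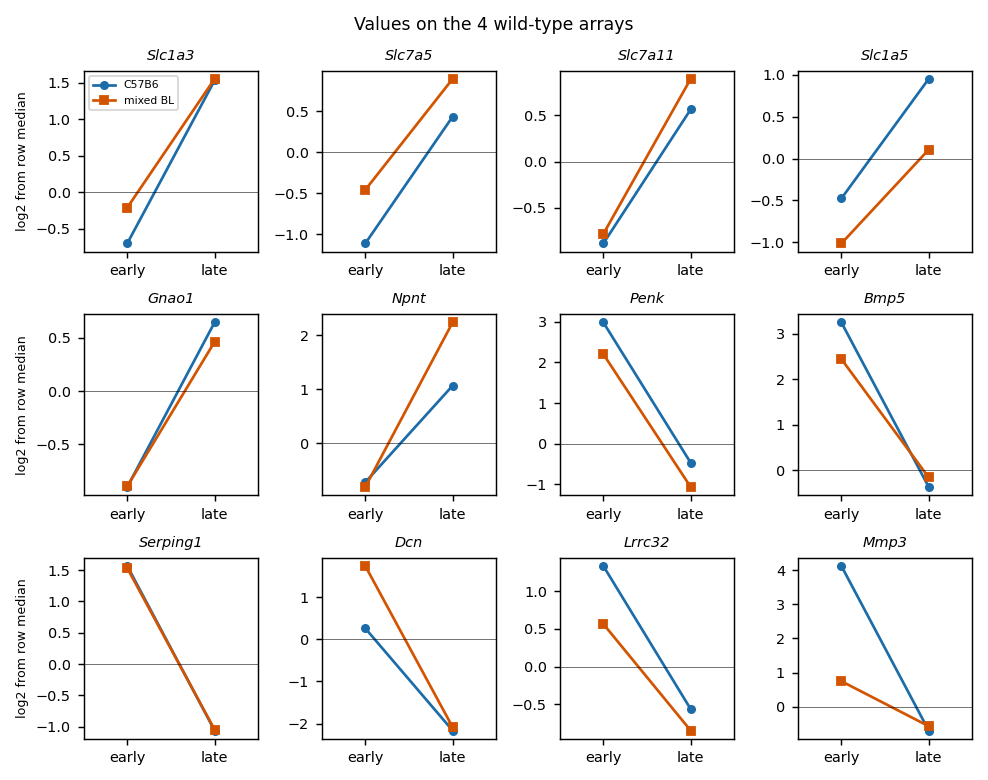
Values of 12 genes on the 4 wild-type arrays, early and late passage on the horizontal axis and log2 difference from the median of the 8 arrays on the vertical axis, with blue circles for C57B6 and orange squares for mixed BL. Each point is 1 array and each line joins the early and late array of a background; Slc1a3, Slc7a5, Slc7a11, Slc1a5, Gnao1 and Npnt were higher late in both, and Penk, Bmp5, Serping1, Dcn, Lrrc32 and Mmp3 lower late in both.

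Targets of p53 stood mostly lower late. Of 30 measured targets, 25 were lower in C57B6 and 24 in mixed BL, 21 of them in both, with medians of -0.64 and -0.39. Of all features, 47.7% and 44.5% were lower, and 23.6% in both. At least 2-fold lower were 8 targets in C57B6 and 5 in mixed BL, where 1.54% and 2.36% of features were. Pmaip1 was past the limit in both. Pmaip1, which encodes the apoptosis inducer Noxa, stood at 1.17 and 0.81 early and at -0.53 and -0.58 late, with a mean difference of -1.55 ± 0.23 (adjusted p = 0.515). Mdm2, the ligase that degrades p53, was 1.44-fold lower in C57B6 and 2.36-fold lower in mixed BL. Btg2, an antiproliferative gene, was 2.62-fold and 1.34-fold lower, and Polk, a translesion DNA polymerase, 1.93-fold and 2.65-fold lower. Perp, a membrane protein target, ran the other way in C57B6, 2.63-fold higher. None of the 30 passed limma's test. Cdkn1a, a p53 target that encodes a CDK inhibitor, is in neither this list nor the CDK inhibitor list, and its values are not reported here.

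Genes of mitosis and DNA replication gave medians near 0, while some CDK inhibitor genes, Cdk6 and Ccnd1 were past 2-fold in mixed BL, in both directions. Over 29 mitosis genes the medians were -0.02 and -0.03, and 0 were past 2-fold in either pair. The sign of the C57B6 median turned under quantile normalisation. Over 29 DNA replication genes the medians were -0.02 and 0.14, and the single gene past the limit was Rrm2, a ribonucleotide reductase subunit, at -1.26 in mixed BL. Of 14 CDK inhibitor and retinoblastoma family genes, 0 were past 2-fold in C57B6, and in mixed BL 4 were lower (Cdkn2b, Cdkn1c, Cdk6 and Ccnd1) and 1, Cdkn1b, higher. In mixed BL 2.36% of all features were at least 2-fold lower and 1.55% higher. The medians of the 14 were -0.23 and -0.33. Cdkn2a, whose products hold senescent cells in arrest, differed by -0.02 in C57B6 and -0.35 in mixed BL. Cdkn2b, a related CDK inhibitor, differed by 0.30 and -1.22, and Cdkn1b, another CDK inhibitor, by 0.38 and 1.08. Ccnd1, cyclin D1, stood at 0.87 early and -1.26 late in mixed BL and at 0.27 and -0.35 in C57B6. Cdk6, its kinase partner, was 1.80-fold lower in C57B6 and 3.65-fold lower in mixed BL. Lmnb1, a nuclear lamina gene known to be low in senescence, differed by 0.11 and 0.46.

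Lists of secreted chemokines and proteases had medians below 0, with members in both directions. Of 28 genes linked to the senescent secretory phenotype, 21 were lower in C57B6 and 17 in mixed BL, with medians of -0.32 and -0.10. Most encode chemokines, cytokines or growth factors, and others adhesion receptors (Vcam1 and Icam1), the protease Plau and its receptor Plaur. At least 2-fold lower were 10 in C57B6 and 7 in mixed BL, against 1.54% and 2.36% of all features. The 5 lower by that much in both, against 0.368% of all features, were Ccl2, Ccl7, Cxcl14, Ereg and Vcam1. The monocyte attractant Ccl2 stood at 1.20 and 1.52 early and at -0.26 and -0.90 late, and Ccl7 was 2.53-fold and 4.68-fold lower. Ereg, an EGF receptor ligand, gave -1.38 and -2.19. Past 2-fold the other way were the chemokines Cxcl15, at -1.59 in C57B6 and 2.78 in mixed BL, and Cxcl12, at 0.18 and 1.22, and the decoy receptor Tnfrsf11b, at 1.01 and -1.02. The C57B6 value of Cxcl15 was -0.33 after quantile normalisation. Of 19 metalloproteinases and inhibitors, 14 were lower in each background, with medians of -0.24 and -0.58. Mmp3, stromelysin, stood at 4.12 early in C57B6 against -0.70 late, a 28.2-fold difference, and at 0.75 and -0.57 in mixed BL. Mmp13, a collagenase, was 8.37-fold and 1.97-fold lower, and Reck, a membrane inhibitor of metalloproteinases, 2.41-fold and 2.13-fold lower. The proteases Adamts12 and Adamts4 ran the other way, at 1.79 and 0.78 for Adamts12 and at -0.06 and 1.62 for Adamts4.

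Lysosomal genes stood mostly lower late in both backgrounds. Of 30 measured, 26 were lower in C57B6 and 23 in mixed BL, 20 of them in both, and the medians were -0.56 and -0.33. Unadjusted p was under 0.05 for 14 of the 30, against 1599 of 22536 features, and 0 passed after adjustment. Members share arrays and the list was chosen with earlier results known, so this count is no test of the list. The limit of 2-fold lower was passed by 4 in C57B6 and 5 in mixed BL, against 1.54% and 2.36% of features, and Ctsk and Ctsc were so in both. Ctsc, a dipeptidyl peptidase, stood at 0.08 and -0.08 early and at -1.50 and -1.30 late. Markers of macrophages, which are rich in lysosomes, moved with this list in mixed BL. Over 27 such markers the median level was -0.04 and -0.04 in C57B6 early and late, and 0.19 and -0.01 in mixed BL. In mixed BL 24 of 27 were lower late, 4 of them by at least 2-fold, against 13 of 27 and 0 in C57B6. Of all features, 44.5% were lower in mixed BL and 2.36% at least 2-fold lower, and 47.7% and 1.54% in C57B6. Lyz2, lysozyme, stood at 3.20 early and -0.13 late in mixed BL and at 0.13 and -0.26 in C57B6. Cd53, a leukocyte tetraspanin, stood at 2.51 and -0.21 in mixed BL, and Ctss, a protease of antigen-presenting cells, at 1.62 and 0.00. The defining marker Adgre1 stood at 0.23 and -0.01 in mixed BL, C1qa at 0.36 and -0.04, and Csf1r at 0.10 and 0.59, the last of these higher late. The part of such cells in the lysosomal values was not tested.

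**Figure D3:**
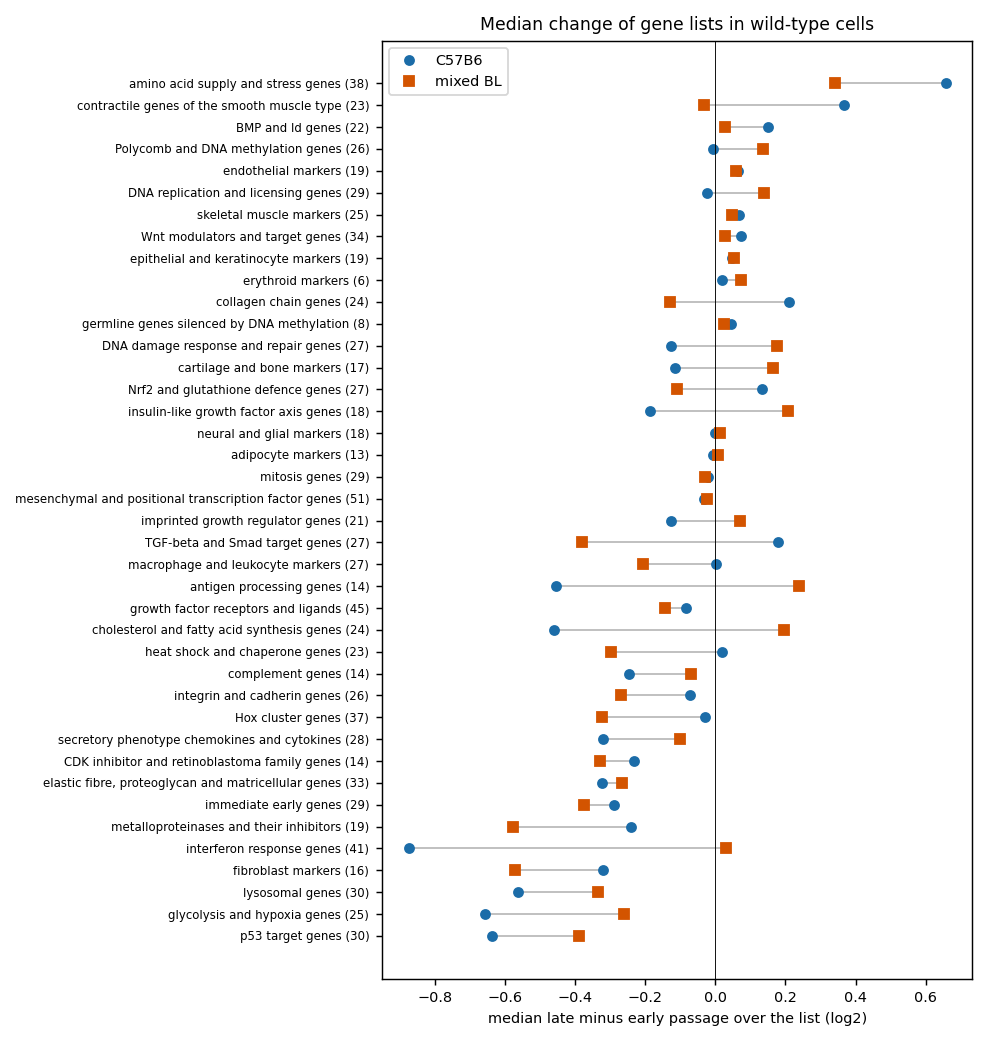
Median late minus early difference, in log2 units, over each gene list but the sex-linked one, for C57B6 (blue circles) and mixed BL (orange squares). The number of measured genes is in brackets, and lists are ordered by the mean of both medians. Lists to the left in both include p53 targets, glycolysis and hypoxia genes, lysosomal genes, fibroblast markers and metalloproteinases. The interferon response genes lie to the left in C57B6 only, and the amino acid genes, listed after values were seen, to the right.

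Interferon response genes stood lower late in C57B6 and near 0 in mixed BL. Interferons act through cell surface receptors, and their signal reaches a short promoter element, the interferon-stimulated response element, that switches on antiviral genes. The 4 promoters printed here belong to the listed genes with the largest C57B6 differences whose promoter holds that element. Each is the 200 bases before the RefSeq gene start (GRCm38.p6), 5′ to 3′ on the gene's strand. Capitals mark matches of GAAANNGAAA on either strand.
Ifit1 (chr19:34640689-34640888, plus strand): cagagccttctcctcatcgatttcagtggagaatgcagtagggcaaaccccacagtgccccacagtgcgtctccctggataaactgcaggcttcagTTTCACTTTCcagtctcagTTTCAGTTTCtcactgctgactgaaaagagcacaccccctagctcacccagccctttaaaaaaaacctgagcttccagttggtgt
Bst2 (chr8:71537473-71537672, minus strand): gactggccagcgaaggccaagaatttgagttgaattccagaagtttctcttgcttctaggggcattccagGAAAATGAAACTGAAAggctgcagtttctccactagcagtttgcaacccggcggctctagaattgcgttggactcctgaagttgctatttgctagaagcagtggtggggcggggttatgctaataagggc
Gbp3 (chr3:142559844-142560043, plus strand): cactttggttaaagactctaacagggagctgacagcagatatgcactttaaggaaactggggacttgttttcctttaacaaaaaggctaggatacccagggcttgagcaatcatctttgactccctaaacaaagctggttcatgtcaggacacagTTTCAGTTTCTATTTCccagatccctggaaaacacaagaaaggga
Ifit3 (chr19:34583329-34583528, plus strand): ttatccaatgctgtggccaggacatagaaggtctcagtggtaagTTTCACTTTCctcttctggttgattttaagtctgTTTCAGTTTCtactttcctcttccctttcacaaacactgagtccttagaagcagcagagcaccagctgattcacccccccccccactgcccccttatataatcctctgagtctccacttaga
Each holds 2 matches, which overlap in Bst2 and Gbp3, and their first bases lie 104 and 85, 130 and 124, 45 and 39, and 156 and 122 bases before the start.

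Ifit1, which binds foreign RNA, stood at 2.03 early and -0.63 late in C57B6, and at -0.24 and -0.36 in mixed BL. Bst2, which tethers virions at the cell surface, stood at 2.29 and -0.24 in C57B6 and at -0.26 and 0.04 in mixed BL. Gbp3, an interferon-induced GTPase, stood at 1.75 and -0.32 in C57B6 and at -0.24 and 0.21 in mixed BL. In each case the early C57B6 array lay above the other 3, which lay between -0.63 and 0.21. Ifit3, an adaptor of antiviral signalling, stood at 0.88 and -1.08 in C57B6 and at -0.37 and 0.43 in mixed BL. Rtp4, an interferon-induced chaperone, showed the largest difference of the list, 2.83 early and 0.05 late in C57B6 against -0.06 and -0.09. The transcription factor Stat2 stood at 1.51 and -0.14 in C57B6, and Irf7, a factor that amplifies the response, at 0.98 and -0.23. Their mixed BL differences were 0.31 and -0.01.

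Of 41 interferon response genes measured, 39 were lower late in C57B6 and 19 in mixed BL, with medians of -0.87 and 0.03. At least 2-fold lower in C57B6 were 19 of the 41, where 1.54% of all features were. In mixed BL 0 were at least 2-fold lower and 1, the exonuclease Isg20, at least 2-fold higher, at -1.04 early and 0.22 late. The median of the list was 0.81 on the early C57B6 array and -0.14, -0.07 and -0.02 on the late C57B6, early mixed BL and late mixed BL arrays. The C57B6 difference thus rests on 1 early array, without which no wild-type C57B6 difference can be formed. On the Smurf2-null arrays the median difference of the list was -0.68 in C57B6 and 0.54 in mixed BL. Antigen processing genes, many of them interferon-induced, were lower late in C57B6 in 14 of 14 (median -0.45), while 10 of 14 were higher in mixed BL (median 0.24). Tap1, the peptide transporter, was 2.90-fold lower in C57B6 and 1.16-fold lower in mixed BL. H2-Q4, a class I gene, stood at 1.43 and -0.46 in C57B6 and at -0.12 and 1.53 in mixed BL. The interferon beta gene Ifnb1 itself differed by -0.04 and -0.03.

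The difference between backgrounds was tested on both genotypes together, as the mean of wild-type and Smurf2-null pairs. Of 22536 features, 0 passed (0%), with 2147 at an unadjusted p under 0.05 and a smallest adjusted p of 0.136. Mixed BL minus C57B6 was 2.86 ± 0.16 for Ifit3 (adjusted p = 0.254), 2.88 ± 0.26 for Bst2 (adjusted p = 0.254) and 2.68 ± 0.44 for Ifit1 (adjusted p = 0.317). The response element was in 16 of 37 promoters of the list (43.2%) and in 1131 of 32851 RefSeq promoters (3.44%), each of 300 bases. By gene, 9 of the 14 members with a promoter that were at least 2-fold lower in C57B6 held it, and 6 of the other 16. With C as the next base it was in 14 of 37 (37.8%) and in 0.819% of all promoters. The list was made of genes that interferon switches on, so a share above that of all promoters followed from its choice. That share says nothing about passage, and the counts of 9 of 14 and 6 of 16 were not tested against each other. A match describes the letters and is no evidence of binding.

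**Figure D4:**
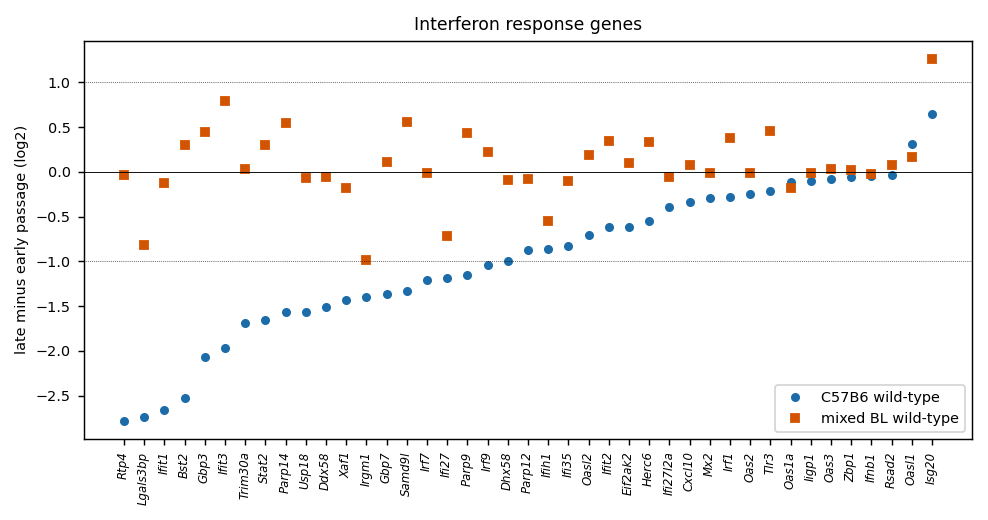
Late minus early difference in log2 units of the 41 measured interferon response genes, ordered by their C57B6 value, with blue circles for C57B6 and orange squares for mixed BL wild-type cells and dotted lines at 2-fold. In C57B6 39 genes lie below 0 and 19 at or below the lower dotted line, while in mixed BL the values lie on both sides of 0.

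Other genes past 2-fold in C57B6 and near 0 in mixed BL included regulators of mesenchyme and growth. Prrx1, a mesenchymal homeobox factor, stood at 0.38 early and -2.18 late in C57B6 and at 0.15 and 0.38 in mixed BL. Gdf10, a TGF-beta family ligand, stood at 2.48 and -0.01 against 0.01 and 0.07, and Chil1, a chitinase-like protein, at 2.56 and -0.02 against -0.15 and 0.02. Fosb, an immediate early factor, stood at 2.28 and 0.09 against -0.01 and -0.24, and the chemokine Cxcl5 at 1.94 and -0.12 against -0.12 and 0.07. For Gdf10, Chil1, Fosb and Cxcl5 it was again the early C57B6 array that lay apart from the other 3. Higher late in C57B6 alone were Parm1, a mucin-like membrane protein (3.76-fold), the homeobox factor Pax1 (3.63-fold), the potassium channel Kcnt2 (2.88-fold), Ccn4, a Wnt-induced matricellular protein (2.88-fold), and the vitamin D receptor Vdr (2.59-fold). Parm1 was low early, at -1.87, against 0.04 late and 0.86 and 0.97 in mixed BL, whereas Pax1 was high late, at 1.65.

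Metabolic and contractile lists also differed in size between the pairs. Of 25 glycolysis and hypoxia genes, 23 were lower late in C57B6 (median -0.66) and 17 in mixed BL (median -0.26). Slc16a3, which exports lactate, stood at 1.61 and -1.09 in C57B6 and at -0.31 and 0.32 in mixed BL. Adm, a hypoxia-induced peptide, was lower in both, 5.60-fold and 3.60-fold, and Ndrg1, another hypoxia-induced gene, higher in both, 2.75-fold and 2.20-fold. Of 24 cholesterol and fatty acid synthesis genes, 22 were lower in C57B6 (median -0.46) and 17 higher in mixed BL (median 0.20), and 0 were past 2-fold in either pair. Among 23 contractile genes, 20 were higher in C57B6 (median 0.37) and 10 in mixed BL (median -0.03), with 0 past 2-fold in either. Cnn1, calponin, stood at -1.07 and -0.23 in C57B6 and at 0.23 and 0.87 in mixed BL. Of 27 TGF-beta targets, 16 were higher in C57B6 (median 0.18) and 23 lower in mixed BL (median -0.38), including Smad7, the inhibitory Smad, at 1.04 and -0.38 in mixed BL.

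Genes lower late in mixed BL alone had varied roles. The largest differences were those of Ripk3 (-3.25), Ctla2a (-2.80), Cd53 (-2.72), Col10a1 (-2.65), Fgf10 (-2.59) and Galnt17 (-2.54). Wnt5a, a noncanonical Wnt ligand, stood at 1.15 early and -1.24 late in mixed BL and at -0.03 and 0.03 in C57B6. Fgf10, a mesenchymal growth factor, stood at 0.90 and -1.69 against -0.53 and -0.57, and Igfbp6, an IGF binding protein, at 1.45 and -1.01 against -0.43 and -0.60. Ripk3, the kinase of necroptosis, stood at 1.09 and -2.16 against -0.09 and 0.09. Igf2bp3, an RNA-binding protein of embryonic cells, was 5.55-fold lower and the Wnt inhibitor Dkk2 5.57-fold lower, with C57B6 differences of -0.01 and 0.07. Col10a1, a cartilage collagen, stood at 2.76 and 0.11 and lay between -0.03 and 0.03 in C57B6. Igfbp3, which is not in that group since it differed by -0.97 in C57B6, stood at 3.74 early and -0.45 late in mixed BL.

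Higher late in mixed BL alone were genes with 1 high array and genes with 1 low array. Pcdhb7, a clustered protocadherin, stood at 4.07 late and between -0.11 and 0.30 on the other arrays, an 18.1-fold difference in mixed BL. Tmem178 stood at 3.50 late, with the others between -0.03 and 0.61, and Sfrp1, a secreted Wnt inhibitor, at 2.37 late with the others between -0.01 and 0.17. Nol3, an apoptosis repressor, stood at 2.12 late and Rasl12, a Ras-like protein, at 2.22. Tgfbi, a TGF-beta induced matrix protein, differed in another way: it was low early, at -1.63, and stood at 1.01 late, against -0.42 and -0.21 in C57B6. Ptx3, a long pentraxin, was likewise low early, at -2.40, and stood at 0.12 late. The small RNA Rny3 was 4.08-fold higher late.

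Hox genes, which hold the positional identity of fibroblasts, separated by cluster. Over 9 Hoxc genes the medians were -0.40 in C57B6 and -1.29 in mixed BL, and 8 of 9 were lower in each. Hoxc8 stood at 3.00 early and -0.44 late in mixed BL and at 0.37 and -0.71 in C57B6, and Hoxc6 at 2.51 and -0.46 against 0.46 and -0.57. At least 2-fold lower were 5 Hoxc genes in mixed BL and 2, Hoxc6 and Hoxc8, in C57B6, against 2.36% and 1.54% of all features. Over 9 Hoxb genes, 9 of 9 were higher in C57B6 (median 0.14) and 8 of 9 lower in mixed BL (median -0.52). Hoxb9 stood at 1.27 early and -0.83 late in mixed BL and at -0.04 and 0.04 in C57B6. Hoxa genes gave medians of -0.12 and -0.17 and Hoxd genes 0.01 and 0.04. Mixed BL minus C57B6, over both genotypes, was -1.98 ± 0.13 for Hoxc6 (adjusted p = 0.254) and -2.42 ± 0.28 for Hoxc8 (adjusted p = 0.266).

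Some genes lay past 2-fold in opposite directions. Gpc3, a glypican that limits growth, stood at 3.87 early and -0.53 late in C57B6, a 21.1-fold difference, and at 1.36 early and 3.50 late in mixed BL. Cnmd, chondromodulin, stood at 2.88 and 0.69 in C57B6 and at -0.69 and 3.95 in mixed BL. Sfrp4, a secreted Wnt inhibitor, stood at 2.74 and -0.40 against 0.77 and 3.63, and the aminopeptidase Anpep at 2.40 and -0.08 against -0.10 and 2.35. Cartilage genes did not all run this way. Sox9, the cartilage master factor, differed by -1.13 and 1.07, and Col2a1, a cartilage collagen, by -0.50 and 1.67. Acan differed by -1.04 and 0.16, and the cartilage collagen Col10a1 by -0.06 and -2.65. Of 17 cartilage and bone markers, 11 were lower late in C57B6 (median -0.11) and 12 higher in mixed BL (median 0.16). Lower in both were 3 of the 17, and higher in both 4. Imprinted genes were split as well: Zim1 differed by -2.44 and 2.08 and Peg3, its neighbour in an imprinted cluster, by -0.91 and 1.93, while Ndn, necdin, differed by -0.96 and -3.50. In the reverse direction, Tfpi, the inhibitor of tissue factor, stood at -0.60 and 0.98 in C57B6 and at 0.55 and -3.27 in mixed BL. Eng, a TGF-beta coreceptor also used as an endothelial marker, differed by 1.40 and -2.51.

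Genes shared by both wild-type backgrounds were also read on the Smurf2-null arrays, which those selections did not use. Of the 78 named genes lower in both, 62 were lower late in null C57B6 cells and 68 in null mixed BL cells, against 37.4% and 50.8% of all features. In null cells 31 and 42 of the 78 were at least 2-fold lower, against 3.35% and 2.74% of all features. Genes lower in a single wild-type background gave like shares in the null pair of that background, 21 of 59 in C57B6 and 80 of 161 in mixed BL. The shares within a single null pair were therefore not particular to the shared genes. Both null pairs were past the limit for 22 of the 78, against 0.763% of all features. Of the 18 higher in both, 8 were higher in null C57B6 and 16 in null mixed BL, against 62.6% and 49.2% of all features. In both null pairs 1 of them was past the limit, against 0.173%. Slc7a3 (-1.11 and 2.09) and Aldh1l2 (-1.45 and 1.36) were lower late in null C57B6 and higher in null mixed BL. Slc1a3 (0.60 and 1.60), Slc7a5 (0.49 and 1.16) and Slc7a11 (0.57 and 1.62) were higher in both null pairs. The amino acid list had medians of 0.06 and 0.50 in null C57B6 and mixed BL cells, against 0.08 and -0.004 over all features. Gas6 differed by -2.77 and -4.19 in null cells and Lrrc32 by -1.72 and -1.65. Penk ran the other way there, by 0.75 and 1.26, and Edil3 differed by 0.54 and -0.16. The interaction of genotype with passage was called for 0 of 22536 features (0%), with 1114 at an unadjusted p under 0.05 and a smallest adjusted p of 0.456, that of Hspb1. Null minus wild-type was 4.36 for Penk (adjusted p = 0.873) and 2.91 for Edil3 (adjusted p = 0.841), so these differences did not pass. Hspb1, a small heat shock protein, differed by 0.75 and 0.67 in wild-type and by -2.43 and -2.18 in null cells. Mitosis genes, with medians of -0.02 and -0.03 in wild-type cells, had medians of 0.97 and 0.60 in null cells. Over all features the wild-type and null mixed BL pairs had a Pearson correlation of 0.55, and the C57B6 pairs 0.20.

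Genes of chromosome 15 stood apart from other chromosomes in C57B6 by a small shift of many genes. The median difference of its 700 genes was 0.16, and 80.1% of them were higher late, against 50.3% of all 17438 genes on numbered chromosomes and X. On chromosome 17 the median was 0.10 with 72.3% higher, and on chromosome 2 it was 0.07 with 68.4% higher. In mixed BL chromosome 15 had a median of 0.07 with 62.7% higher, against 53.6% of all genes. The highest chromosome there was 8, at 0.08 with 64.3% higher. On the arrays themselves the chromosome 15 median was -0.04 and 0.09 in C57B6 early and late, and -0.01 and 0.03 in mixed BL. Chromosome 15 carries Slc1a3, Vdr, Ccn4 and Adamts12, a secreted protease that was 3.47-fold and 1.72-fold higher late, and also the Hoxc cluster, which was lower. No test was made of these medians, since genes of a chromosome on 1 array are not replicates.

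**Figure D5:**
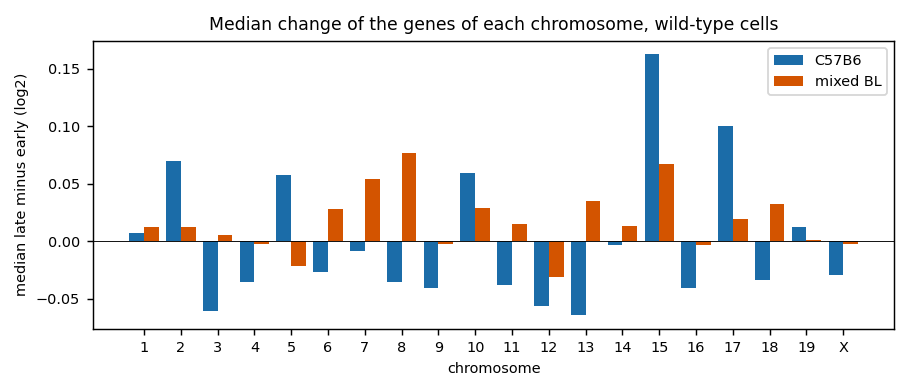
Median late minus early difference of the genes of each chromosome, in log2 units, as bars from 0, for wild-type C57B6 (blue) and mixed BL (orange) cells. The highest bar is chromosome 15 in C57B6, at 0.16, followed by chromosome 17 in C57B6, at 0.10.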

How the data were processed

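Total RNA of 8 fibroblast cultures, 4 of them wild-type, was measured on Affymetrix arrays, 1 array per genotype, background and passage class, without technical replicates per the labels. The authors deposited log2 values in which every transcript cluster has a median of 0 over the 8 arrays (the largest row median was 5e-07 in size). How arrays were normalised and probes summarised is not given in the sources used here. Genome builds mm8 and mm9 are named, with no role, in the submitters' processing notes. Gene names came from the annotation of a gene-level array, to which the probe identifiers matched, although the series text speaks of an exon array.

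Of 24169 clusters, 19134 had 1 symbol, 1230 several and 3805 none. Clusters of a gene were averaged (17501 genes, 899 with several clusters), and 5′ promoter sequences and current symbols came from RefSeq tables of GRCm38.p6. Because the values are centred, no filter on dim clusters was possible. The number of arrays limits the precision.

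Limma 3.58.1 in R 4.3.3 fitted genotype, passage class, their interaction and background (as the block of labelled replicates) to all 22536 features, leaving 3 residual degrees of freedom. The wild-type contrast was late minus early, and a second fit held passage by background. P-values were adjusted by Benjamini-Hochberg and measure only the spread between these arrays, possibly a technical one. The fit was tested on simulated data. A difference within 1 background is 1 array against 1, with no test. The block was used because arrays share a labelled background. Deviations from group means correlated between 0.01 and 0.67 over pairs of arrays of one background.

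Members, 40 lists of genes and the rule for naming were chosen with earlier results of these data known; the list of amino acid genes was added after these values were seen. Named genes are the largest differences past 2-fold in both backgrounds (12 each way), in one background with under 0.25 in the other (10 each way), or in opposite directions (5 a pattern); the smallest p of limma (8 each way, and 5 for each interaction); 6 a list; and Smurf2, cell cycle and sex-linked genes. Pdgfra, Aspn, Ifnb1, Stat2, Irf7, Isg20, Adgre1, C1qa, Ddit4, Slc1a5, Serpina3n, Lcn2, Gpm6b, Wnt16, Popdc3 and Cck were named after their values were seen, as were members picked by fold from the immediate early, complement, chemokine, protease and CDK inhibitor lists. An older symbol in a list was matched to a gene only where it is not itself a current symbol. Alternatives were other fold limits, quantile normalisation, removal of the median difference, single clusters, array weights, a variance trend, leaving out X and Y, wild-type arrays alone, no block, and leaving out each array.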

Additional observations from a re-analysis of the deposited data

Results flagged for a closer look

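Genes at least 2-fold different in opposite directions in the 2 backgrounds were set apart because the single late minus early difference of C57B6 and that of mixed BL had opposite signs. Within wild-type cells the difference between backgrounds was not tested, since each background has 1 early and 1 late array. Sfrp4 differed by -3.15 in C57B6 and 2.86 in mixed BL, and Anpep by -2.48 and 2.45. Kng1, the kininogen precursor of bradykinin, differed by -2.20 and 2.32. Cnmd differed by -2.20 and 4.64, and Gpc3 by -4.40 and 2.14. In the reverse direction, Adam23, an integrin-binding membrane protein, differed by 1.84 and -2.12, and Nkain4, which interacts with the sodium pump, by 1.70 and -1.84. Styk1, a receptor-like kinase, differed by 1.71 and -1.62, Tfpi by 1.58 and -3.82, and Rflnb, a filamin-binding protein, by 1.80 and -1.57. Over both genotypes together, mixed BL minus C57B6 was 3.50 ± 1.43 for Sfrp4 (SE, limma adjusted p = 0.566), 4.45 ± 1.31 for Cnmd (adjusted p = 0.441) and -2.74 ± 0.44 for Rflnb (adjusted p = 0.312), and no feature passed.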

How the results depend on the processing

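The limma tests called 0 features under every alternative run, including 0 with no replicate block (1205 at an unadjusted p under 0.05) and 0 for the wild-type arrays alone (1432, with 1 residual degree of freedom). Leaving out each array in turn also gave 0 to 0 calls, with 824 to 2653 features at an unadjusted p under 0.05 for the wild-type difference. The paired fit with background as the block thus changed no call. The mean-variance trend was run although centred values hold no mean level. Counts past a fold limit moved with the limit, as fewer features pass a higher one. At 1.5-fold and at 4-fold there were 1390 and 76 in C57B6, 2568 and 174 in mixed BL, 371 and 13 in the same direction in both, 446 and 8 in C57B6 alone, 1214 and 39 in mixed BL alone, and 196 and 7 in opposite directions. Other alternatives kept these counts within 1.5 times. For the 40 lists without that of amino acid genes, 157 alternative values of medians moved by less than 0.1 on the log2 scale and 3 by more. That size was set here since single arrays give no spread. Quantile normalisation gave -0.71 for the interferon response genes in C57B6, and moved the sex-linked genes to 0.44 and 0.55. The amino acid genes, not in that count, also moved by more than 0.1 in C57B6, from 0.66 to 0.76. Single genes moved more often. Quantile normalisation shifted 278 of 622 differences of named genes by 0.1 or more, by 1.26 at most. Of 271 past 2-fold as deposited, 15 came under 2-fold and 0 changed sign; 17 of all 622 changed sign. Under quantile normalisation Reck stood at -0.96 and -0.99, Cdkn1c at -0.95 and Ctsc at -0.97 in mixed BL, and Sox9 at -0.87 in C57B6, all under 2-fold. Differences past 2-fold that moved by over 1.5 times included those of Parm1 (to 2.82), Gpc3 (to -3.48) and Mmp3 (to -3.96) in C57B6, and of Gpc3 (to 1.19), Sfrp4 (to 1.82), Cnmd (to 3.92), Bves (to 2.93), Pcdhb7 (to 3.22), Tmem178 (to 2.65), Clu (to 2.39), Edil3 (to -2.24), Ptn (to -3.33), Tfpi (to -3.16), Thbs2 (to -4.25) and Ndn (to -2.87) in mixed BL. Removing each pair's median moved 0 by that much. Leaving out an array moved 24 of 128 values of the mean differences named by limma, by 0.41 at most. The response element with C as next base was in 14 promoters of the interferon list in place of 16. With 1 array per background and passage, no difference of a single background has an error.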

Other observations

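Further large single differences were found in each background. The genes given here were picked after their values were seen. In C57B6 the acute-phase proteins Serpina3n and Lcn2 were 30.6-fold and 28.9-fold lower late. Serpina3n stood at 3.89 early and -1.05 late in C57B6 and at 2.13 and 2.68 in mixed BL, and Lcn2 at 5.21 and 0.35 against -0.31 and 0.01. The early C57B6 array was the highest of the 4 wild-type arrays for both genes. Gpm6b, a membrane protein and 1 of the 78 genes past 2-fold lower in both backgrounds, was 11.5-fold lower in C57B6 and 2.84-fold lower in mixed BL. In mixed BL the ligand Wnt16 stood at 4.59 late and between -0.23 and 0.83 on the other 3 arrays. Popdc3, of the same Popeye family as Bves, stood at 3.91 late and between -0.01 and 0.61 on the others. The peptide hormone gene Cck ran the other way, at 3.13 early and -0.23 late in mixed BL and at 0.23 and -0.28 in C57B6. None of these passed limma's test.

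Of 29 immediate early genes, a list that also holds feedback inhibitors of MAP kinase signalling, 21 were lower in C57B6 and 21 in mixed BL, with 15 lower in both and medians of -0.29 and -0.37. At least 2-fold lower, as were 1.54% and 2.36% of all features, were 5 in C57B6 (Fos, Fosb, Jun, Ier2 and Zfp36) and 6 in mixed BL (Nr4a1, Dusp6, Maff, Spry2, Spry4 and Etv4). Fos, a subunit of AP-1, stood at 2.16 early and 0.59 late in C57B6 and at 0.11 and -0.16 in mixed BL. Dusp6, a phosphatase of ERK, stood at 1.02 early and -1.32 late in mixed BL and at -0.38 and -0.04 in C57B6. Mixed BL minus C57B6, over both genotypes, was -2.69 ± 0.19 for Dusp6 (SE, limma adjusted p = 0.254) and 1.27 ± 0.26 for Fos (adjusted p = 0.357).

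Complement genes were divided. Of 14 measured, 9 were lower late in C57B6 (median -0.24) and 7 in mixed BL (median -0.07), and 4 in both. Serping1 was the 1 gene at least 2-fold lower in both. Clu, clusterin, stood at 2.55 and 0.96 in C57B6 and at 0.01 and 3.06 in mixed BL, and C4b at 2.22 and 1.33 against -0.39 and 1.30.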
